A study of Mus musculus with 4 samples.

Results

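The genes described here encode the MHC class II antigen presentation machinery. They are Cd74, H2-Aa, H2-Ab1, H2-Eb1, H2-DMa and Ciita, taken as every probe set that the platform annotation assigns to one of these 6 symbols alone. All 6 genes were measured, by 7 of the 12422 probe sets of the array, with 2 for H2-DMa. The seminal vesicle, a male accessory gland, was sampled from 4 mice labelled strain C57Bl/6J, genotype Nkx3.1 +/+ and age 15 months, with no treatment, and each animal had its own Affymetrix Mu74AV2 array. The 4 arrays form a single group, so levels and the spread between animals can be described but no genotype, age or tissue is compared. The animals are called mouse 1 to mouse 4, and values are log2 expression values as deposited. The genes were chosen by function with their log2 values and spread over these 4 mice already known, so those values are a description without a test.

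MHC class II molecules are pairs of an alpha and a beta chain that display peptides from endocytosed proteins to CD4 T cells. The invariant chain, encoded by Cd74, holds new pairs in the endoplasmic reticulum and fills their groove until proteases trim it away. H2-DM, a heterodimer of an H2-DMa and an H2-DMb chain, then exchanges the remaining invariant chain fragment for antigenic peptide. Ciita is the co-activator that switches the set on. Dendritic cells, macrophages and B cells express the genes steadily, and interferon gamma can induce them in epithelium and endothelium. C57BL/6 mice carry the H2-b haplotype, which makes the I-A pair from H2-Aa and H2-Ab1. Its Ea gene has a deletion in the promoter region and is not transcribed, so H2-Eb1 transcript has no I-E alpha partner.

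Promoter windows are shown for the members held in the RefSeq promoter table (build GRCm38.p6), because class II genes share an upstream module of X and Y boxes. The table had a window of 250 bases before to 50 bases after the start for 3 of the 6 members, H2-Aa, H2-Eb1 and H2-DMa. The letters searched were GCAAC as an X1 core, TGACG or TGATG as an X2 core and TGATTGG as a Y box, chosen after reading these windows. Capitals mark GCAAC followed 15 to 40 letters later by TGATTGG on the gene's strand, and TGACG or TGATG between them, where neighbouring TGATG matches can overlap.
H2-Aa, chr17:34287774-34288073, minus strand: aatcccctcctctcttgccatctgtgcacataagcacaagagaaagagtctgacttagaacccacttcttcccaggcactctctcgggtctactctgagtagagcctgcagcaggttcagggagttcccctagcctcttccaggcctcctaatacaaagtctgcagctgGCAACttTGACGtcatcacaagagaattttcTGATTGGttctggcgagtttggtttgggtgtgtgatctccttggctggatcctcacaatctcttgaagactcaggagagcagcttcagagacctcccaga
H2-Eb1, chr17:34305617-34305916, plus strand: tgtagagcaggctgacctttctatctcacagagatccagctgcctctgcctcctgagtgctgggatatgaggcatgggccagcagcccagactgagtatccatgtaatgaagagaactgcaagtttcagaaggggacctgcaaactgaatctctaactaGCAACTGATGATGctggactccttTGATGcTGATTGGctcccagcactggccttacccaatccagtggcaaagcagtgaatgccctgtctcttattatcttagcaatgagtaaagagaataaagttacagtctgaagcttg
H2-DMa, chr17:34122582-34122881, plus strand: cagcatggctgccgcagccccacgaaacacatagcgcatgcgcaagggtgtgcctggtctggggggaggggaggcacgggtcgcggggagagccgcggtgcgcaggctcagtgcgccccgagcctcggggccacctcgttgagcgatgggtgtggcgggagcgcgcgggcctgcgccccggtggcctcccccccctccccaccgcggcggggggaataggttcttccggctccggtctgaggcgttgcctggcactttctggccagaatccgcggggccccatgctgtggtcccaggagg

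In H2-Aa the letters GCAAC began at position -81 and TGATTGG at -50 relative to the start, with 26 letters between them. In H2-Eb1 they began at -91 and -61, with 25 letters between them. H2-DMa has a further start in the table, and TGATTGG was in neither of its windows on either strand. The gene is annotated from position 34119693, which neither window spans. Other starts of H2-DMa were not searched, so these windows do not show that its promoter lacks the boxes. Of 32851 windows in the table, 45 (0.137%) held GCAAC and TGATTGG in this arrangement, from 43 genes. On either strand GCAAC alone was in 35.2% of windows, TGACG in 20.8%, TGATG in 39.3% and TGATTGG in 7.82%. Windows of 5 partner genes of the class II region are shown over the same stretch, of which 3 hold the arrangement and H2-DMb1 and H2-DMb2 do not.
H2-Oa, chr17:34092291-34092346, plus strand: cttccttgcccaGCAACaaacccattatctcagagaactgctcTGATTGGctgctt
H2-Ob, chr17:34238806-34238858, plus strand: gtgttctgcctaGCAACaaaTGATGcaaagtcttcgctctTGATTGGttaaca
H2-Eb2, chr17:34325531-34325585, plus strand: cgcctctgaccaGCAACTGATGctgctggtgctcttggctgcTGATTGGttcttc
H2-DMb1, chr17:34153076-34153140, plus strand: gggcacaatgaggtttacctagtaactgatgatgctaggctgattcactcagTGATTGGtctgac
H2-DMb2, chr17:34145105-34145169, plus strand: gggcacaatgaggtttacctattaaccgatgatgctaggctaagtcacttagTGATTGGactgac

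H2-Oa, H2-Ob and H2-Eb2 had 26, 23 and 25 letters between the boxes. H2-DMb1 and H2-DMb2 held TGATTGG, which is capitalised, with no GCAAC in the window. Both also held TGATG upstream of TGATTGG, left in lower case because TGATG was marked only between GCAAC and TGATTGG. Only exact letters were searched, so these windows do not show that the H2-DMb1 and H2-DMb2 promoters lack an X box. These matches describe letters in a window and are not measured binding sites.

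The labelled tissue was borne out by its secretory genes, and the arrays resembled each other across all probe sets, though single genes differed. All 6 measured genes of a seminal vesicle secretion list (among them Svs2, Svs4 and Svs5) and 7 of 8 luminal epithelium genes were above the background range. Of the 8251 genes of the array 28.8% were above it, the share to set beside the count of every list below. The range ended, per array, at the 90th percentile of 98 probe sets that read 74 genes typical of other organs, between 5.97 and 6.23. Of the 74 genes, 7 were themselves above the range on all 4 arrays, the brightest at a mean of 8.60. Passing the limit therefore does not alone show expression. Array medians were 4.95 to 4.98. For the 6 pairs of arrays Pearson's r was 0.992 to 0.994, computed across genes, which are not independent replicates. At most 1 probe set had an identical value on both arrays of a pair. Pbsn and Fcgbp, named after their values were seen, were highest in mouse 1. Pbsn had 6.57, 3.02, 3.18 and 3.47 in mice 1 to 4 (adjusted p = 0.0015, limma's variance model, described below). Fcgbp had 7.88, 6.27, 6.08 and 5.94 (adjusted p = 0.0147, limma). Other called genes, among them Ighm, differed in other mice. Whether the tissue make-up of the samples differed was not tested. The labels give neither litter nor hybridisation batch.

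The invariant chain gave a strong signal in every mouse. Cd74 had 9.08, 9.47, 9.58 and 8.81 in mice 1 to 4, a mean of 9.24 ± 0.36 (SD, n = 4). Mouse 3 was highest and mouse 4 lowest, 0.77 log2 units or 1.71-fold apart. The probe set's mean exceeded 98.5% of all probe sets of the array, a rank that also depends on how brightly its probes hybridise. Whole-tissue RNA does not tell fewer class II-expressing cells from less RNA per cell, and this applies to every value given here.

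The chains of I-A were also above the background range on all 4 arrays. H2-Aa, the alpha chain gene, had 7.90, 8.25, 8.29 and 7.70 in mice 1 to 4, a mean of 8.03 ± 0.28 (SD, n = 4). H2-Ab1, the beta chain gene, had 7.08, 7.26, 7.53 and 6.86, a mean of 7.18 ± 0.29. Both put the mice in the order 3, 2, 1, 4 from high to low, as Cd74 did. The range over the mice was 0.58 log2 units (1.5-fold) for H2-Aa and 0.68 log2 units (1.60-fold) for H2-Ab1.

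The I-E beta chain gene passed the background limit, whereas the probe set of its alpha partner did not. H2-Eb1 had 7.89, 8.40, 8.43 and 8.05 in mice 1 to 4, a mean of 8.19 ± 0.26 (SD, n = 4), and was above the range in every mouse. It was highest in mouse 3 like the I-A chains but lowest in mouse 1. The probe set for H2-Ea, the I-E alpha gene, had 3.69, 3.63, 3.57 and 3.70, below the range on all 4 arrays, with an SD of 0.06. H2-Eb2, a second beta chain gene of the region, stayed at 3.16 to 3.28, also below it. Levels of different probe sets are not set against each other, so only the side of the background limit is compared.

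H2-DMa, the alpha chain of the peptide exchange factor, was above the range by both of its probe sets, which differed in their pattern over the mice. The brighter one had 7.07, 7.34, 7.28 and 7.02 in mice 1 to 4, a mean of 7.18 ± 0.16 (SD, n = 4), highest in mouse 2. The dimmer one, whose name ends in _f_at, had 6.66, 6.55, 6.74 and 6.63, a mean of 6.65 ± 0.08, and was lowest in mouse 2. That suffix marks a probe set whose probes can read a family of related sequences. Its beta chain partners H2-DMb1 (6.44, 6.44, 6.58 and 6.33) and H2-DMb2 (6.17, 6.16, 6.27 and 6.47) passed the limit narrowly. H2-DMb1 was highest in mouse 3, and H2-DMb2 was highest in mouse 4. A further probe set that the annotation gives to both H2-DMb genes stayed below the range, at 3.54 to 3.73, so the array's reading of these similar genes is uncertain.

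H2-Oa and H2-Ob encode the H2-DO pair, which restrains H2-DM and is found mainly in B cells and thymic epithelium. Neither was above the range. H2-Oa had 5.60, 5.45, 5.39 and 5.45 in mice 1 to 4, and H2-Ob had 3.76, 3.90, 3.84 and 3.67. Of the 5 class II genes whose promoter windows held the GCAAC and TGATTGG arrangement shown above, H2-Aa and H2-Eb1 were above the range and H2-Oa, H2-Ob and H2-Eb2 were not.

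The co-activator gene itself was not above the background range. Ciita had 5.32, 5.27, 5.04 and 5.31 in mice 1 to 4, a mean of 5.24 ± 0.13 (SD, n = 4), and was lowest in mouse 3, in which Cd74, H2-Aa, H2-Ab1 and H2-Eb1 peaked. A value under the limit does not show that a gene is silent, and its order over the mice carries little information. In all, 5 of the 6 genes were above the range on all 4 arrays, against 28.8% of the 8251 genes of the array. Of the 6 measured partner genes, H2-DMb1 and H2-DMb2 were above it.

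**Figure D1:**
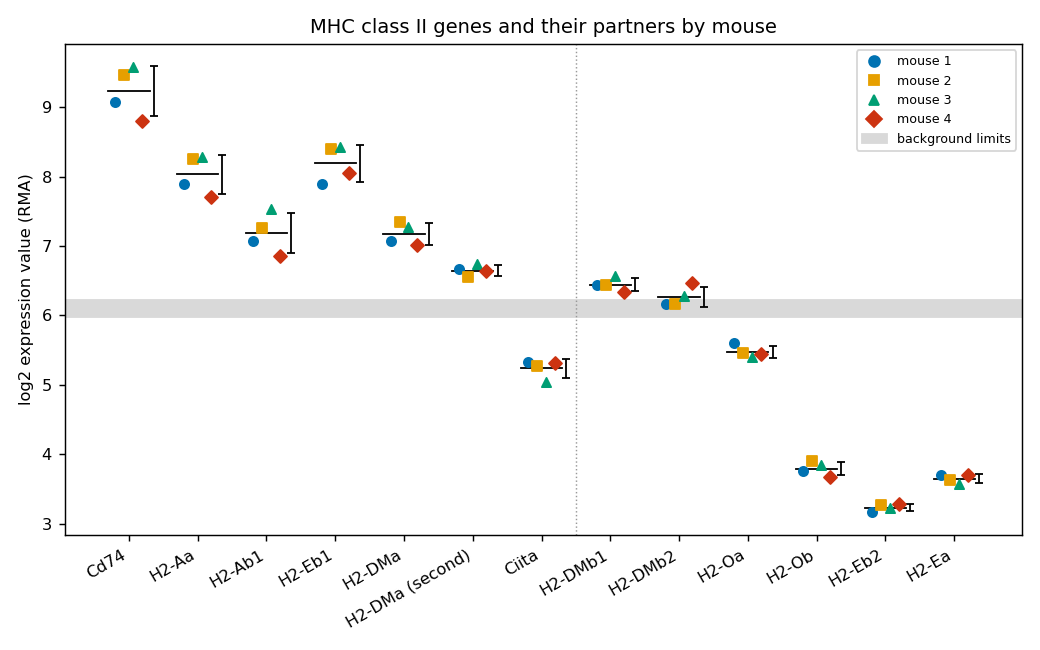
Log2 expression values (RMA) of the 7 probe sets of the 6 class II genes, left of the dotted line, and of 6 partner genes, right of it. Points are mice 1 to 4, the horizontal bar is the mean, the error bar is the SD over 4 mice, and the grey band spans the background limits of the 4 arrays (5.97 to 6.23). Cd74, H2-Aa, H2-Ab1, H2-Eb1 and both H2-DMa probe sets lie above the band in every mouse, while Ciita and H2-Ea lie below it. Heights of different probe sets are not comparable.

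The 5 genes above the range shared a pattern over the mice. Each gene was centred on its mean over the mice, and the average of the 5 deviations was -0.16, 0.18, 0.26 and -0.28 log2 units in mice 1 to 4. Mouse 3 thus exceeded mouse 4 by 0.53 log2 units, or 1.45-fold. By the brightest probe set of each, mice 2 and 3 both exceeded mice 1 and 4 in all 5 genes, and 18.8% of the 2376 genes above the range had this arrangement. The second H2-DMa probe set, also above the range, did not have it and was lowest in mouse 2. Cd74, H2-Aa and H2-Ab1 were highest in mouse 3, then mice 2, 1 and 4, an order held by 4% of genes above the range. These counts describe genes that were proposed with the pattern in view, and nothing is read from them.

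Among themselves the genes were most alike for Cd74 and the I-A chains. The root mean square difference between the deviations of Cd74 and H2-Aa over the 4 mice was 0.07, that of H2-Aa and H2-Ab1 was 0.08 and that of Cd74 and H2-Ab1 was 0.09. H2-Eb1 differed from Cd74 by 0.17, with its greatest gap in mouse 4, where Cd74 stood 0.43 below its mean and H2-Eb1 0.14 below. H2-DMa differed from Cd74 by 0.19 and had the narrowest range of the 5, 0.32 log2 units or 1.25-fold.

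**Figure D2:**
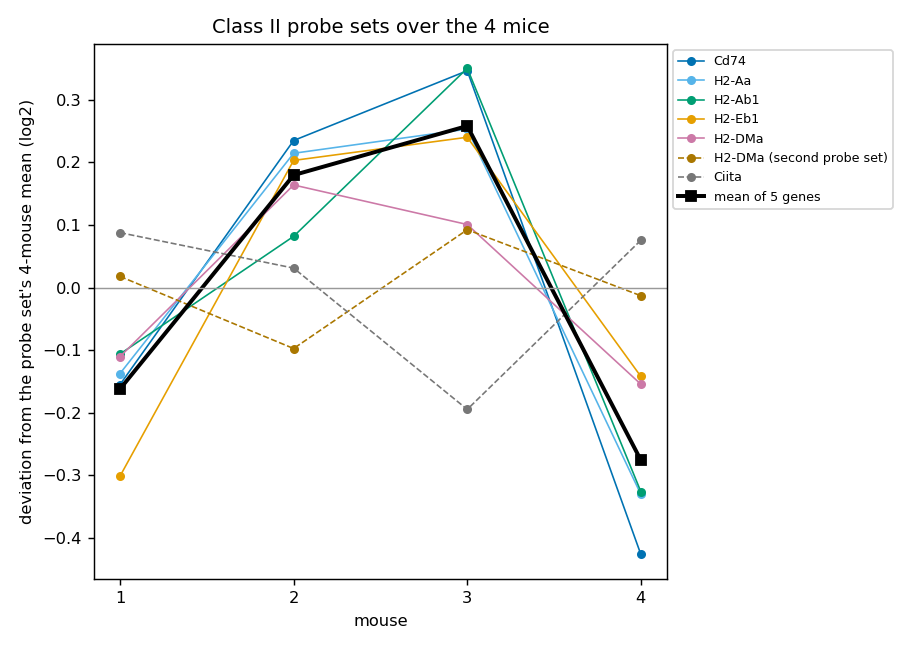
Deviation of each class II probe set from its own 4-mouse mean (log2, vertical axis) in mice 1 to 4 (horizontal axis), with the mean of the 5 genes above the background range in black. Lines join the values of a probe set and imply no order of the mice. The black line is at -0.16, 0.18, 0.26 and -0.28, while the dashed second H2-DMa probe set and Ciita do not follow it.

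For 4 of the 7 class II probe sets the SD over the mice exceeded that of over 90% of probe sets of like signal. Among the 500 probe sets nearest in mean signal, 98.1% had a smaller SD than Cd74, 94.4% than H2-Ab1, 93.4% than H2-Aa and 91.8% than H2-Eb1. For H2-DMa it was 71% and 26.8% for its brighter and dimmer probe set, and for Ciita 60.4%. Limma's variance model, fitted over all 12422 probe sets and adjusted by Benjamini-Hochberg at 0.05, called 35 of them (0.282%) variable between the mice, 17 without mouse 4 and 23 without mouse 2. Of the 7 class II probe sets it called 0, with 4 at an unadjusted p under 0.05, as had 5.44% of all probe sets. Nothing is read from these class II counts, because the genes were proposed with this spread known, and a probe set that is not called is not shown to be steady.

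**Figure D3:**
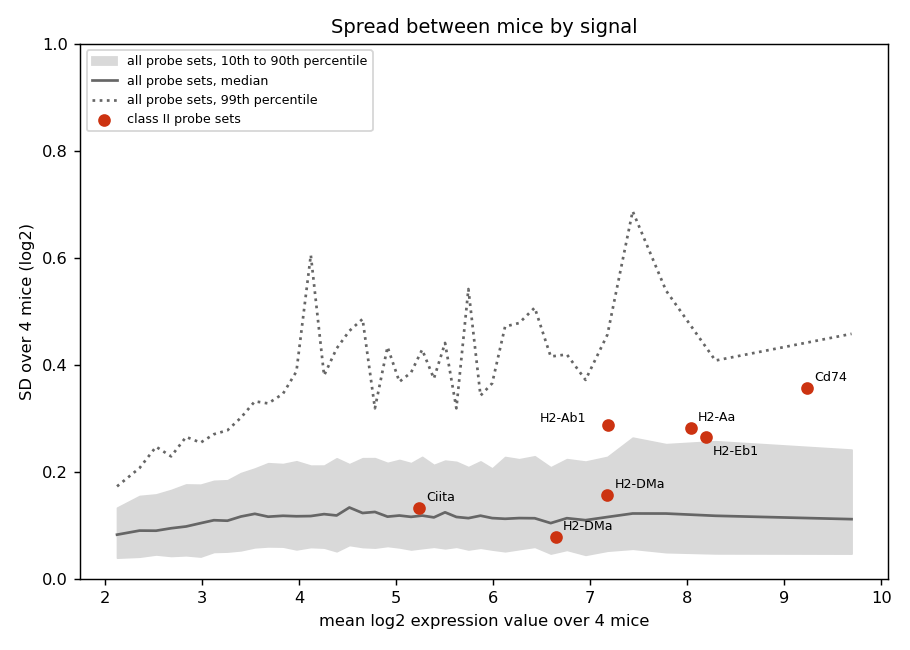
SD over 4 mice (log2, vertical axis) against mean log2 expression value (horizontal axis). The grey band spans the 10th to 90th percentile of all probe sets in 40 bins of signal, the solid line is their median and the dotted line their 99th percentile. Red points are the 7 class II probe sets, of which Cd74, H2-Ab1, H2-Aa and H2-Eb1 have SDs of 0.26 to 0.36.

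Most genes listed for processing and turnover of the invariant chain and antigen were above the range. Of 9 measured genes of proteolysis and turnover, 6 were above the range, 0 were called by limma (2 with unadjusted p under 0.05) and 6 were lowest in mouse 3. The share of all genes lowest in mouse 3 was not counted, so nothing is read from that number. The list's mean deviation was -0.08, 0.19, -0.09 and -0.03 in mice 1 to 4. The 2 genes with their highest value in mouse 3 and their lowest in mouse 4, Ctss and Ctsh (Ctsh named after its values were seen), compare with 7.61% of all genes, and neither was above the range on all 4 arrays. Ctss, the protease that trims the invariant chain in antigen-presenting cells, had 5.99, 6.42, 6.44 and 5.78 in mice 1 to 4. It was thus in the order of Cd74, and above the limit in mice 2 and 3 alone. Ctsl, which does so in thymic epithelium, is widely expressed and was named after its values were seen, had 7.80, 8.75, 8.03 and 8.12 and was highest in mouse 2. Ifi30, the lysosomal thiol reductase, had 6.41, 6.65, 6.12 and 6.55, lowest in mouse 3, and Lgmn, the asparagine endopeptidase, was below the range at 3.89 ± 0.08 (SD, n = 4).

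Genes of class II transcription and its interferon signal were mainly below the range. Of 18 measured genes, 3 were above the range (Nfyc, Usf1 and Jak1, named after their values were seen) and 0 were called by limma, and 0 had an unadjusted p under 0.05. Rfxank, a subunit of the factor that binds the X box, had 5.89 to 6.00, and Nfya and Nfyb, subunits of the factor that binds the Y box, had 5.18 to 5.25 and 3.99 to 4.26. Nfyc, the remaining subunit, had 6.64 ± 0.15 (SD, n = 4) and was lowest in mouse 3, at 6.43. The list's mean deviation stayed between -0.01 and 0.02 in the 4 mice.

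Most interferon gamma targets were not above the range on all 4 arrays, and their mean deviation was lowest in mouse 4. Of 13 measured genes, 2 were above the range, 0 were called by limma (2 with unadjusted p under 0.05) and 9 were lowest in mouse 4, against 20.6% of all genes. Of these 9, 8 were not above the range on all 4 arrays, where the order of the mice carries little information. The list's mean deviation was 0.02, 0.08, 0.04 and -0.14 in mice 1 to 4. Gbp2 had 4.76, 4.59, 4.56 and 4.29, Igtp had 4.45 ± 0.08 (SD, n = 4), and Irgm1 had 3.01, 3.40, 3.06 and 2.79, all interferon-induced GTPase genes below the range. The order of Cd74 held for 2 of the 13, Psmb8 and Psme1, both named after their values were seen. Psmb8 had 5.54, 5.73, 6.04 and 4.87 in mice 1 to 4, below the limit on all 4 arrays, with a range of 1.18 log2 units. Psme1 had 6.30, 6.39, 6.47 and 6.29, above the range. The other genes of the list had other orders.

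Costimulatory genes of antigen-presenting cells gave little signal. Cd80 had 3.21 to 3.28, Cd86 4.15 to 4.29 and Cd40 3.78 to 3.95, all below the range. Of the 6 measured genes of costimulation and adhesion, the 2 above it were the widely expressed tetraspanin genes Cd9 and Cd81, named after their values were seen. None was called by limma (1 with unadjusted p under 0.05).

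Markers of the cells that can carry class II were set beside the pattern of the class II genes. Of 19 measured macrophage genes, 3 were above the range (C1qa, C1qc and Cd14, named after their values were seen). The highest value was in mouse 3 for 9 of the 19, with the share of all genes not counted. The lowest was in mouse 4 for 11, against 20.6% of all genes. Of these 11, 9 were not above the range on all 4 arrays, where the order of the mice carries little information. Both extremes held for 6 of the 19, of which 2 were above the range, against 7.61% of all genes. The mean deviation of the 19 was 0.03, -0.01, 0.09 and -0.12 in mice 1 to 4, so mouse 2 was not raised as it was for class II. The earliest genes of the list, Cd68 (4.91, 4.94, 4.79 and 4.69), Adgre1 (4.81, 4.94, 5.07 and 4.70) and Csf1r (5.26, 5.35, 5.56 and 5.39), stayed below the range. The order of Cd74 held for 4 of the 19, Adgre1, C1qa, C1qb and Fcgr2b (C1qb and Fcgr2b named after their values were seen). It was held by 4% of genes above the range. C1qa had 6.63, 6.70, 6.97 and 6.44 in mice 1 to 4 and was the only 1 of these 4 above the range on all 4 arrays. C1qb had 6.20, 6.32, 6.60 and 5.73, above the limit on 3 arrays. C1qc and Cd14, above the range, had other orders, as had the rest of the list. None of the 19 was called by limma (2 with unadjusted p under 0.05).

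The mean deviations of the dendritic and B cell lists stayed within 0.1 log2 units of 0 in every mouse. Most genes of both lists were not above the range, and RMA shrinks differences of dim probe sets. Small deviations therefore do not show that these cells were equally present in the mice. Of 13 dendritic cell genes 3 were above the range, and their mean deviation over all 13 was 0.04, -0.08, 0.01 and 0.03 in mice 1 to 4, lowest in mouse 2. Itgax had 5.41 to 5.67 and Zbtb46 2.67 to 2.84, below the range, and Flt3 had 6.45 to 6.66, above it. Of 10 B cell genes 1 was above the range, the adaptor Blnk, named after its values were seen, with a list mean of -0.05, 0.00, 0.05 and 0.00. Cd79a (5.84 to 6.17), Cd79b (4.89 to 5.12) and Ms4a1 (6.05 to 6.22) were not above it on all 4 arrays. In both lists 0 genes were called by limma, and 0 had an unadjusted p under 0.05.

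Plasma cell genes had the widest span of mean deviations among the lists, carried by 3 of the 7 measured genes. The mean deviation over the 7 was -0.08, 0.34, 0.21 and -0.47 in mice 1 to 4. Mice 2 and 3 both exceeded mice 1 and 4 in 4 of the 7. These included all 3 above the range, against 18.8% of genes above the range. The called genes, 3 by limma's variance model, were Ighm (adjusted p = 0.00733), Igha (adjusted p = 0.0242) and Jchain (adjusted p = 0.0332). The mean deviation of these 3 was -0.09, 0.67, 0.59 and -1.17 in mice 1 to 4, and that of the other 4 genes was -0.08, 0.09, -0.07 and 0.06. Those 4, named after their values were seen, are Xbp1, the transcription factor of the secretory programme, highest in mouse 2 like Iglc1, a light chain gene, and Sdc1 and Tnfrsf17, surface markers of plasma cells, highest in mouse 4, and of the 4 only Xbp1 was above the range. Igha and Jchain put the mice in the order of Cd74. By its brightest probe set Ighm was highest in mouse 2 and lowest in mouse 4. Another called Ighm probe set had 6.89, 7.70, 7.87 and 6.33 in mice 1 to 4, the order of Cd74 (adjusted p = 0.0326, limma). Ighm is read by 16 probe sets and Igha by 3, and 4 of the list's 25 probe sets were called, against 0.282% of all probe sets. Without mouse 4 none of these 3 was called (adjusted p = 0.86, 0.255 and 0.378, limma), and without any of the other mice all 3 were. No probe set of the array was called by limma when only the 3307 above the mean background limit were tested (smallest adjusted p = 0.197). Their part in the class II values was not tested.

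The lists of T and NK cells and of leukocytes in general had narrow spans, with most of their genes, too, not above the range. The 13 T and NK cell genes had mean deviations of 0.03, -0.02, 0.03 and -0.04, with 2 above the range, and Cd3e at 6.11, 6.03, 6.31 and 6.29. Cd3d (2.88 to 2.98) and Cd3g (3.07 to 3.44) were below it. The 12 leukocyte genes had 0.03, 0.02, 0.02 and -0.06, with 5 above the range. Ptprc, which encodes CD45, had 3.71 to 4.11, Cd53 had 4.65, 5.07, 4.87 and 4.46, and Cd52, also strongly made by male tract epithelium, had 11.86 to 12.10. In both lists 0 genes were called by limma, and 0 had an unadjusted p under 0.05.

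Lists of the tissue's structural cells had other patterns. Endothelial genes had mean deviations of -0.06, 0.00, -0.02 and 0.08 over 8 genes, with 2 above the range. Pecam1 had 7.06 to 7.48, Cdh5 3.90 to 4.17 and Tek 2.65 to 2.94. Luminal epithelial genes had -0.08, 0.16, -0.09 and 0.01 over 8 genes, and smooth muscle genes 0.38, -0.20, -0.04 and -0.14 over 8 genes, highest in mouse 1. Erythrocyte genes, a sign of blood, had -0.12, 0.27, -0.29 and 0.14 over 4 genes, with 1 above the range. None of these was called by limma (2 luminal, 5 smooth muscle and 2 erythrocyte genes with unadjusted p under 0.05). The share of all probe sets with such a p, 5.44%, stands beside the counts of every list. The 3' minus 5' difference of the array's beta-actin control was 1.08, 0.82, 1.02 and 0.98 in mice 1 to 4 and that of Gapdh -0.12, -0.15, -0.15 and -0.13. The Gapdh difference was lower in mice 2 and 3 than in mice 1 and 4, the split of the class II genes, over a span of 0.034 log2 units, and its part in the class II values was not tested. The beta-actin difference was lowest in mouse 2 and highest in mouse 1, over 0.26 log2 units.

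**Figure D4:**
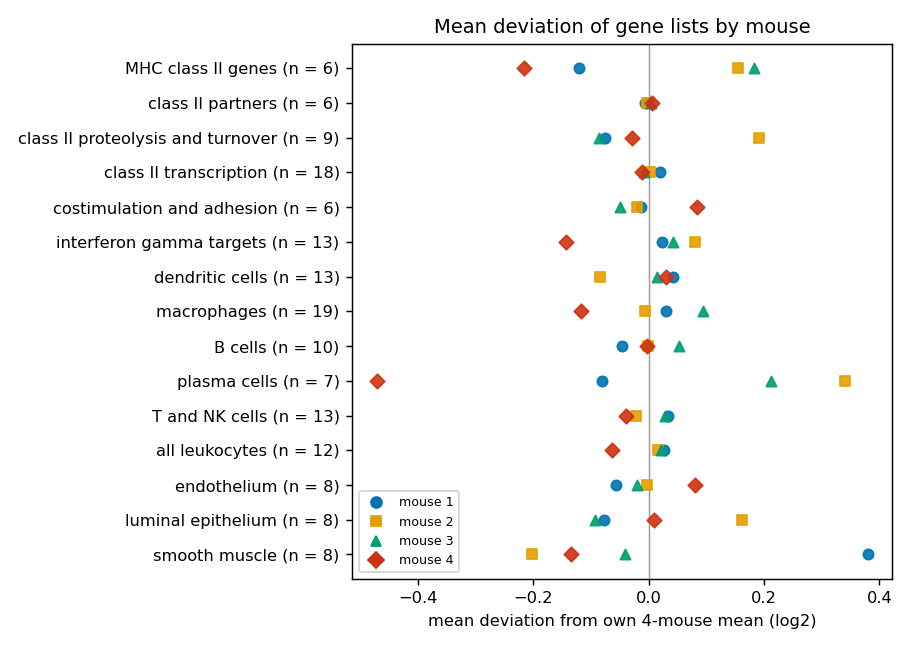
Mean deviation of each gene list from its genes' own 4-mouse means (log2, horizontal axis), dim genes included, for mice 1 to 4, with the number of measured genes beside the name. The class II genes lie at -0.12, 0.15, 0.18 and -0.22 when Ciita is included, and the plasma cell list spans -0.47 to 0.34.

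The probe sets nearest to the class II pattern were sought among 2601 other single-gene probe sets above the range. Likeness was the root mean square difference over the 4 mice from the mean deviation of the 5 class II genes, which had a median of 0.24 over the candidates. The 10 nearest differed by 0.04 to 0.08. In order they were Hnrnpa2b1, an RNA-binding protein gene, Bphl, a hydrolase gene, and Dnajc10, an endoplasmic reticulum disulfide reductase gene. Supt5, a transcription elongation factor gene, Fyttd1, an mRNA export adaptor gene, and the MHC class I heavy chain gene H2-K1 came next. Ccni, Ptdss1, Pak2 and the vesicle tethering gene Uso1 completed the 10.

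H2-K1 was the only antigen presentation gene among the 10. Its probe set, which can read related class I sequences, had 7.11, 7.34, 7.45 and 7.04 in mice 1 to 4, the order of Cd74, at a root mean square difference of 0.06. The nearest gene of all, Hnrnpa2b1, had 7.47, 7.75, 7.84 and 7.38, at a difference of 0.04. With 172 candidates within 0.15, a likeness over 4 mice is a description of these arrays.

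**Figure D5:**
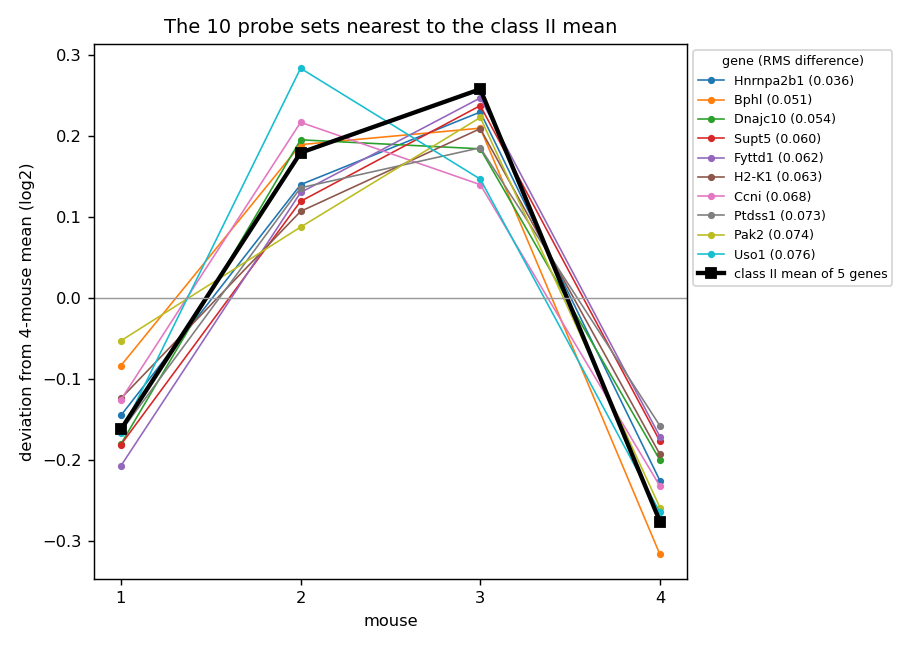
Deviation from the own 4-mouse mean (log2, vertical axis) in mice 1 to 4 (horizontal axis) of the 10 probe sets nearest to the class II mean, which is drawn in black. The legend gives each gene's root mean square difference, 0.04 to 0.08. Lines join the values of a probe set and imply no order of the mice.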

How the data were processed

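Seminal vesicle RNA of 4 mice was measured on 1 Affymetrix array each. Per the submitters' processing notes the authors used RMA. The deposited table gives a log2 value for each probe set, from 1.47 to 13.2. RMA sets arrays to a common distribution and shrinks differences of dim probe sets; its version is not given in the sources used here. The table had 12488 rows, of which 66 control probe sets stayed out of tests. Names came from the platform annotation, updated by gene ID to RefSeq symbols (10817 of 10833 single-gene probe sets matched), while 396 probe sets with several genes and 1193 without a gene stayed unnamed. A gene was represented by its brightest probe set.

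The background range ended on each array at the 90th percentile of values of 98 probe sets that read genes typical of other organs, and a probe set had to pass it on all 4. Variances with 3 residual degrees of freedom were tested against limma's robust, trended prior (8.06 degrees of freedom) by an upper-tail F test with Benjamini-Hochberg adjustment. The test was checked on simulated data. The members and lists were chosen with earlier results of these data known. Named genes were every class II member and partner, 3 measured genes per other list (the earliest in list order), called genes of the lists and the 10 nearest probe sets. Further genes are marked in the text as named after their values were seen. Alternatives covered array scaling, each mouse left out, the background limit, the prior, dim probe sets and the combination of probe sets and members. The number of arrays limits the precision. Work used R 4.3.3 with limma 3.58.1, and Python 3.11.15 with matplotlib 3.10.9.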

Additional observations from a re-analysis of the deposited data

Results flagged for a closer look

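The probe sets examined were 83, those of the genes chosen by the naming rule and of 15 genes named after their values were seen. Pbsn, Fcgbp, C1qb, Fcgr2b, Psmb8 and Psme1 were not among them. Of the 83, 2 had a mouse set apart from the other 3 by Dixon's criterion, which chance alone gives in about 1 of 20 groups and which 5.09% of all probe sets met. Neither is a class II gene. Flt3, a dendritic cell receptor gene, had 6.45 in mouse 2, against 6.66, 6.64 and 6.66 in mice 1, 3 and 4. Zbtb46, a dendritic cell transcription factor gene below the background range, had 2.84 in mouse 4, against 2.67, 2.70 and 2.67 in mice 1 to 3. No class II probe set was set apart in this way.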

How the results depend on the processing

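With 5 genes above the background range in the report, the count was 5 or 6 under 10 alternatives. The mean deviation of the class II genes kept its sign in each mouse under 9 alternatives each, ranging from -0.25 to -0.08 in mouse 1, 0.09 to 0.27 in mouse 2, 0.17 to 0.32 in mouse 3 and -0.33 to -0.19 in mouse 4. No class II probe set was called under any of 9 alternatives by limma, which is a description since their spread was known. Over the whole array the 35 called probe sets became 17 to 44 with each mouse left out, 15 with a non-robust prior and 0 when only the 3307 probe sets above the mean limit were tested (limma gave 177 with unadjusted p under 0.05 and 0.197 as the smallest adjusted p), and the cause was not tested. The level of H2-DMa was 6.91 with the mean of its probe sets in place of 7.18 for the brighter one. With dim probe sets kept, 2 of the 10 nearest genes were shared, since more probe sets were searched. No paired analysis was possible because the labels give 1 group.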
